A study of Caenorhabditis elegans with 4 samples.

Results

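Broad isolated Pol II domains are long stretches of chromatin enriched for RNA polymerase II (Pol II) that stand apart from other enriched stretches in the worm genome. They were chosen by 2 measured values of the authors' deposited region list: a length of at least 4000 bp, and a gap of more than 1000 bp to the neighbouring listed region on each side. Of 1310 listed regions, 232 met both conditions. The isolated regions under 4000 bp, of which there were 669, serve as the comparison. A further 70 regions were as long but had a neighbour within 1000 bp.

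The worms were wild-type N2 Caenorhabditis elegans, hermaphrodite young adults grown at 20 °C and crosslinked with 2% formaldehyde. Chromatin precipitated with the 8WG16 antibody and total input DNA, the control, were sequenced in 2 replicates each, 4 libraries in all. A single list combined the replicates, so no value below has an error between cultures, and how deeply each library was sequenced is not known. Whole animals were used, so more tags over a region cannot be told apart from more cells using it.

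Pol II transcribes protein-coding genes and many small RNA genes. The tail of its largest subunit, AMA-1 in worms, carries a repeated heptapeptide that is phosphorylated as the enzyme starts and elongates, and 8WG16 binds that repeat with a preference for its less phosphorylated form. Worm genes are compact and closely spaced, and many are arranged in operons, so that a stretch of Pol II can span a gene body, a promoter or several neighbouring genes. The list names no genes and was built on genome build WS180, so each region is identified by its chromosome, first base and last base, and no region was assigned to a gene or an annotated feature. Lengths, gaps, tags and positions come from the same comparison of ChIP with input that defined the regions, and all are given as descriptions with no test. Regions are not replicates. Intervals on shares and densities treat them as independent and are too narrow where regions cluster.

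Broad isolated domains made up 17.7% of the listed regions but 40.8% of the listed bases, 1422 of 3482 kb. Most were only somewhat longer than the limit: the median length was 5330 bp, with quartiles of 4616 and 6545 bp. Between 4000 and 5000 bp lay 90 domains, and between 5000 and 6000 bp lay 62. A further 50 spanned 6000 to 8000 bp, 12 spanned 8000 to 10000 bp, and 18 reached at least 10000 bp. Of the 19 regions of that size in the whole list, only 1 had a close neighbour. The 3 shortest domains measured 4011, 4014 and 4017 bp, and the 3 longest isolated regions left out measured 3995, 3989 and 3963 bp. At the other limit, the domain with the closest neighbour stood 1024 bp from it, on chromosome IV from 6788722 to 6793577. The broad region just outside the limit stood 931 bp from its neighbour, on chromosome I from 12735003 to 12741480.

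The longest domain lay on chromosome III from 7718386 to 7738395, with 20010 bp. It held 5121 ChIP tags (sequenced fragments) against 3409 scaled control tags, a ratio of 1.502 (1.43 to 1.58, the exact 95% interval). Tags were recovered from the q-values. All such intervals cover counting error alone and take the control's scaling factor as known. They are too narrow where tags include PCR copies of a fragment, which are not separate molecules. Chromosome X held 4 of the 10 longest domains. They ran from 11468604 to 11486250 (17647 bp), from 8014407 to 8029532 (15126 bp), from 16790643 to 16803942 (13300 bp) and from 4136679 to 4149242 (12564 bp). The first of these had a ratio of 1.71 (95% exact interval 1.62 to 1.82), the second 1.95 (1.83 to 2.09) and the third 2.14 (1.99 to 2.30). The last was among the most significant regions of the list, and its tags could not be recovered.

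Chromosome V held 3 of the 10 longest. The domain from 10463449 to 10477720 was 14272 bp long and had a ratio of 2.27 (2.13 to 2.43). The domain from 10711740 to 10725005, 234 kb to its right, was 13266 bp long and had a ratio of 1.30 (1.22 to 1.39), so domains of nearly equal length on the same chromosome differed by more than the counting error. The third, from 8414990 to 8427876, was 12887 bp long, with a ratio of 1.35 (1.25 to 1.45). On chromosome III a second long domain ran from 12603759 to 12617840 (14082 bp, ratio 1.99, 1.87 to 2.12), with listed regions 2664 bp to its left and 4846 bp to its right. The longest on chromosome I, from 13054725 to 13066360, spanned 11636 bp with the highest ratio of the 10 longest that had tags, 2.72 (2.51 to 2.96). Chromosome II reached 10732 bp, from 9597570 to 9608301, with a ratio of 2.15 (2.00 to 2.31). Chromosome IV had no domain of 10000 bp, and its longest, from 9989555 to 9999091, was 9537 bp long, with a ratio of 1.43 (1.33 to 1.55).

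Tags were recovered for 226 of the 232 domains. Each of these held at least 446 ChIP tags, with a median of 1452.5 and quartiles of 1048 and 1990. This gave ratios with narrow counting intervals: the interval spanned 21.5% of the ratio in the median domain, against 45.5% in the median shorter isolated region. The ratio of ChIP to scaled control tags ranged from 1.13 to 4.0 over the domains, with a median of 1.76 and quartiles of 1.45 and 2.32. Shorter isolated regions had a median of 1.81 and quartiles of 1.53 and 2.24, and ranged from 1.22 to 21.0. The median of the domains minus that of the shorter regions was -0.055. A ratio of at least 2 was reached by 83 of the 226 domains, or 36.7% (95% exact interval 30.4 to 43.4%), beside 38.4% of all regions with tags and 37.0% of the shorter isolated ones. A ratio of at least 3 was reached by 20 domains, or 8.85% (5.49 to 13.3%), beside 9.45% of all regions. Both shares lay near those of the list as a whole.

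The shares parted at the low end. Of the 226 domains, 70, or 31.0% (95% exact interval 25.0 to 37.4%), had a ratio under 1.5, beside 21.4% of all regions and 22.2% of the shorter isolated ones. A region with few tags passes the q-value limit only with a high ratio, and the plot of ratio against length shows the empty lower left corner that this leaves. With at least 1000 tags in all, a limit added after seeing the data, the medians were 1.76 in 224 domains and 1.81 in 145 shorter isolated regions.

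**Figure D1:**
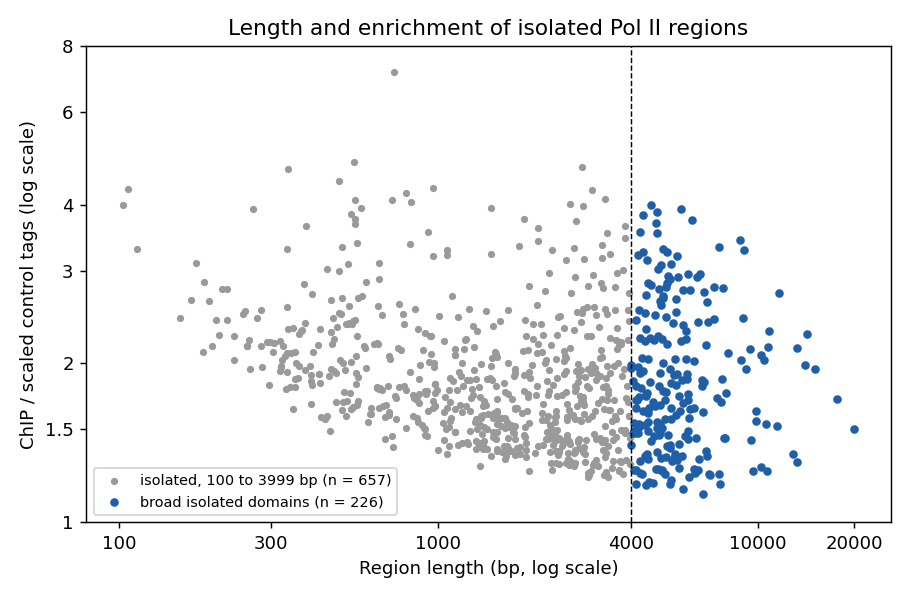
Length in bp (x axis, log scale) and ratio of ChIP to scaled control tags (y axis, log scale) of each isolated region with recovered tags; blue points are the 226 broad isolated domains, grey points 657 shorter isolated regions, and the dashed line marks 4000 bp. Regions under 100 bp, 11 in number, are not drawn. Ratios of the blue points run from 1.13 to 4.0 at lengths up to 20010 bp with no trend along the x axis, while the lower edge of the grey points falls as length grows.

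Within the domains, ratio showed no trend with length. Spearman's rho was 0.023 and Pearson's r on log10 values -0.011 over 226 domains. On single chromosomes rho lay between -0.11 and 0.21 (29 to 50 domains each). In the shorter isolated regions rho was -0.34 (668 regions). These coefficients describe regions that share libraries and, on each chromosome, a control scaling factor, and the q-value limit shapes the coefficient of the short ones. By length class, the median ratio was 1.71 from 4000 to 5000 bp, 1.82 from 5000 to 6000 bp, 1.72 from 6000 to 8000 bp, 2.03 from 8000 to 10000 bp and 1.95 from 10000 bp upwards, the last in 17 domains with tags. The highest ratio was 4.0 in the shortest class and 2.72 in those 17, while 1 further domain of at least 10000 bp, on X from 4136679, had no recovered tags.

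Pol II tags per kb varied more between domains than input did. ChIP tags per kb ran from 98.4 to 610, with quartiles of 202 and 322, an upper quartile 1.59 times the lower. Unscaled control tags per kb ran from 40.6 to 129, with quartiles of 74.1 and 97.7, a factor of 1.32. The median domain held 259 ChIP tags per kb, against 222 in the shorter isolated regions. Its unscaled control was also a little higher, at 87.5 against 80.8 tags per kb. After subtraction of the scaled control, the median excess was 109 tags per kb in the domains and 96.6 in the shorter isolated regions. Input was thus higher together with ChIP, and its part in the higher ChIP density was not tested. Together the domains with tags held 41.7% of the excess tags of all regions with tags and 40.1% of the bases of those regions.

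The highest ratio of the 226 domains with tags was found on chromosome IV from 3644680 to 3649329. It had 2175 ChIP and 544 scaled control tags (ratio 4.0, 95% exact interval 3.59 to 4.47). The 6 domains without tags were among the most significant, and their ratios are not known. The domain from 13077778 to 13083549 on the same chromosome followed with 3.93 (3.52 to 4.42), and chromosome V from 13907037 to 13911862 with 3.88 (3.48 to 4.34). On chromosome I the domain from 6091002 to 6095387 reached 3.83 (3.46 to 4.25), the one from 3292368 to 3298578 reached 3.74 (3.34 to 4.22) and the one from 10577226 to 10581496 reached 3.56 (3.06 to 4.17). The intervals of these 6 overlap, so their order is not resolved by the counting error. Chromosome X had 2 of the 10, from 11965243 to 11970032 with 3.69 (3.27 to 4.20) and from 16940077 to 16944917 with 3.53 (3.12 to 4.01). The longest of the 10 was the 8783 bp domain on chromosome V from 19519205 to 19527987, with 3067 against 896 tags and a ratio of 3.42 (3.12 to 3.77). Chromosomes II and III supplied none of these 10 domains.

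At the other end, 10 domains had ratios between 1.13 and 1.22. The lowest was 1.13 (95% exact interval 1.03 to 1.24) on chromosome III from 13616773 to 13623493, with 1454 ChIP tags against 1286 scaled control tags over 6721 bp. Chromosome II followed with 1.16 (1.04 to 1.29) from 4901890 to 4907705 and 1.18 (1.05 to 1.33) from 13733975 to 13738449. Of the 10, chromosome II held 4, III held 3, V held 2, I held 1, and IV and X held none. These domains had q-values between 7.17e-06 and 0.00944, and the lower bounds of their intervals lay between 1.03 and 1.11.

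Over all 70 domains with a ratio under 1.5, chromosomes II and III held 34, out of 39 and 35 domains with tags. Chromosomes I and IV, whose control was multiplied by the smallest factors, held 12, out of 29 and 36. Chromosome II had the highest share, 19 of 39 domains, or 48.7% (95% exact interval 32.4 to 65.2%). Chromosome I had the lowest, 4 of 29, or 13.8% (3.89 to 31.7%). The share was 42.9% on III, 32.0% on V, 22.2% on IV and 21.6% on X. Among shorter isolated regions it was 33.9% on X, 30.2% on III, 24.7% on II, 22.8% on V, 18.0% on I and 15.5% on IV. The median ratio was highest on I, at 2.02, and IV, at 1.95. It was 1.74 on III, 1.71 on V and 1.69 on X, and lowest on II, at 1.54. The scaling factor of the control moved with this order, from 1.36 (I) and 1.39 (IV) through 1.74 (III), 1.75 (V) and 1.80 (X) to 1.83 (II). Before scaling, the medians lay closer together, from 2.71 on IV and 2.74 on I to 3.03 on III and X, with 2.82 on II and 2.997 on V. The order of chromosomes by ratio therefore changed with the scaling. Against the shorter isolated regions of the same chromosome, the domains were higher by 0.08 on I, 0.04 on III, 0.11 on IV and 0.05 on X, but differed by -0.23 on II and -0.09 on V. Those 6 signs were the same before scaling, which a single factor per chromosome all but fixes in advance. The difference over all chromosomes together turned from -0.055 to 0.10.

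**Figure D2:**
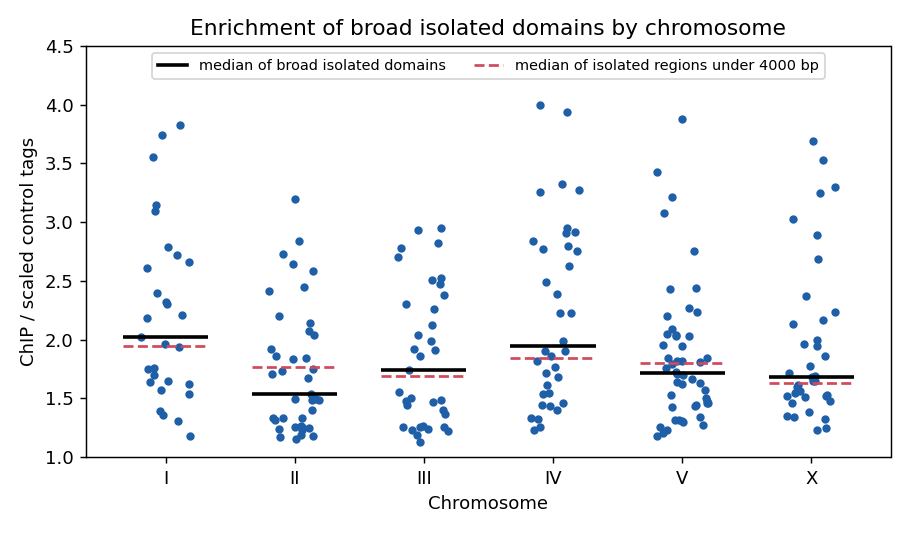
Ratio of ChIP to scaled control tags (y axis) of the 226 broad isolated domains with recovered tags, by chromosome (x axis); each point is a domain, the black bar is their median and the red dashed bar the median of the isolated regions under 4000 bp on that chromosome. Black medians run from 1.54 on II to 2.02 on I, and only on II and V do they lie below the red bar.

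Significance grows with the number of tags, and so with length, and broad domains crowded the top of the list. Of the 100 most significant listed regions 61 were broad isolated domains and 20 shorter isolated regions, and of the last 100 regions 5 were broad isolated domains. A q-value below 1e-50 was found for 97 of the 232 domains, or 41.8%, beside 15.1% of all regions and 7.77% of the shorter isolated ones. Since length is the rule by which the domains were chosen, this is no result about them. The most significant listed region was the 9909 bp domain on chromosome I from 5372146 to 5382054, with a q-value of 4.81e-306. Domains on II (6342598 to 6349611), I (9378390 to 9384449) and X (4136679 to 4149242) took the next places. For these, and for the domains on V from 11884188 to 11890035 and on X from 12662132 to 12669222, no tags could be recovered.

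Among the most significant domains with tags, ChIP density varied. The 5595 bp domain on chromosome II from 6887617 to 6893211 had 3412 ChIP and 1067 scaled control tags, which is 610 ChIP tags per kb and a ratio of 3.20 (95% exact interval 2.93 to 3.50). On chromosome III from 8443238 to 8449836, 3741 and 1268 tags in 6599 bp gave 567 ChIP tags per kb, with a ratio of 2.95 (2.72 to 3.20). Second in density came the domain on chromosome V from 6513154 to 6518148, with 593 per kb and a ratio of 3.08 (2.81 to 3.38), which stood only 1187 bp from its neighbour. The most significant domain of chromosome IV, from 2599589 to 2608625, was 9037 bp long, with a ratio of 3.28 (3.01 to 3.58) and 314 ChIP tags per kb. Its ratio was thus like that of the densest domain at a lower ChIP density. Before scaling, its control held 624 tags in 9037 bp, against 582 tags in the 5595 bp of the domain on II. The control factors were 1.39 on IV and 1.83 on II, and the part of each in the ratios was not tested.

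Along the genome, broad isolated domains occurred at a similar density on all 6 chromosomes. Chromosome II had 2.63 per Mb (95% Poisson interval 1.88 to 3.58), III 2.54 (1.77 to 3.54), V 2.45 (1.82 to 3.22), X 2.21 (1.57 to 3.02), and I and IV 2.06 each (1.40 to 2.93 and 1.44 to 2.85). All 6 intervals overlap, and the highest density was 1.27 times the lowest. Each chromosome held 31 to 51 domains, and differences between chromosomes were not tested. Shorter isolated regions ran from 3.40 per Mb on X (2.60 to 4.38) to 11.1 on I (9.48 to 12.9), a factor of 3.26. X held 39 of the 232 domains, or 16.8% (95% exact interval 12.2 to 22.3%), next to 17.6% of the genome's span, but 8.97% (6.91 to 11.4%) of the shorter isolated regions. Chromosome V held the most domains, 51, or 22.0%, next to 20.8% of the span. Chromosome lengths were taken as the end of the last listed region.

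The contrast with the shorter regions was smaller in some alternatives that remove regions from the list. With the largest factor for every chromosome, 223 domains and 481 shorter isolated regions were left. The fold between the fullest and emptiest chromosome became 1.53 for the domains and 1.99 for the shorter regions. With at least 1000 tags in all, the folds were 1.28 and 2.42. Both alternatives can remove listed regions but add none, so they cannot show which regions another scaling would have called. The densities also moved with the gap condition. Counting broad regions with and without close neighbours, III had 3.70 per Mb, I 3.39, II 3.15, IV 2.98, V 2.78 and X 2.38. Of these broad regions, 92.9% (39 of 42) were isolated on X, 87.9% (51 of 58) on V and 83.3% (40 of 48) on II, but 69.2% (36 of 52) on IV, 68.6% (35 of 51) on III and 60.8% (31 of 51) on I. When gaps of more than 5000 bp were required, 1.20 domains per Mb were left on I and 2.43 on II, a fold of 2.03.

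**Figure D3:**
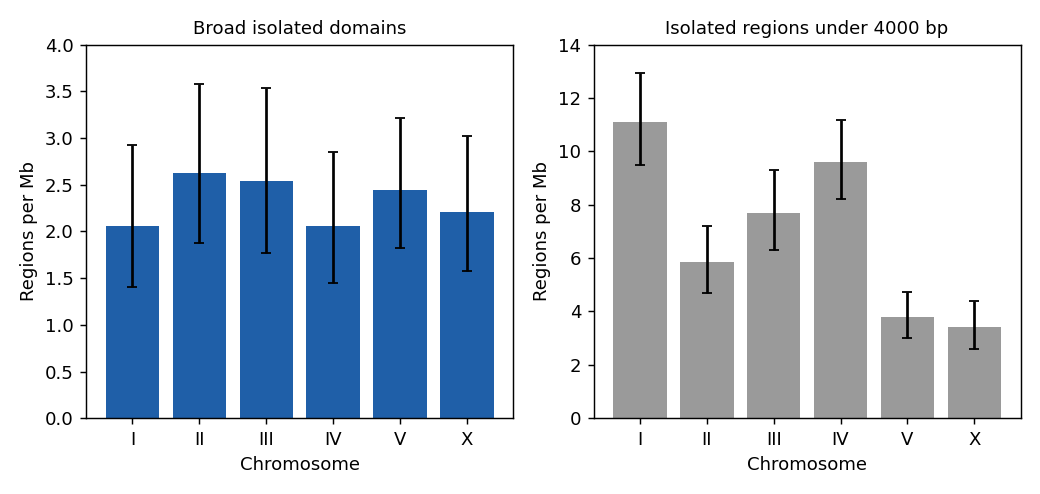
Number of regions per Mb (y axes, which differ in range) on each chromosome (x axes) for broad isolated domains (left, blue) and isolated regions under 4000 bp (right, grey), with 95% Poisson intervals as bars. The domains lie between 2.06 and 2.63 per Mb on every chromosome, while the shorter regions lie between 3.40 on X and 11.1 on I.

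The part played by broad domains in a chromosome's listed bases differed accordingly. They made up 57.8% of the listed bases on V and 56.3% on X, 44.9% on II and 36.3% on III, but 29.7% on IV and 28.3% on I. As a share of the chromosome itself, the domains covered from 1.19% on IV to 1.60% on III.

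The centres of worm autosomes are known to be rich in conserved and highly expressed genes, whereas the arms hold more repeats. Each chromosome was cut into a left, a central and a right part of equal length, each 33.3% of it, and domains were assigned by midpoint. On the autosomes 79 of 193 domains were central, or 40.9% (33.9 to 48.2%, exact 95%). The share was 45.5% (41.5 to 49.5%) among 609 shorter isolated autosomal regions and 48.0% among all 1186 autosomal regions. Autosomes differed in this. Chromosomes II and V had most of their domains in the centre, with 21 of 40 (52.5%, 36.1 to 68.5%) and 26 of 51 (51.0%, 36.6 to 65.2%). Chromosome IV had 14 of 36 (38.9%) and III 11 of 35 (31.4%), with 16 in its right part. On chromosome I only 7 of 31 domains (22.6%, 9.59 to 41.1%) were central, 13 lay in the left part and 11 in the right, while 78 of its 167 shorter isolated regions (46.7%, 39.0 to 54.6%) were central. On I, 11 of the 20 broad regions with a close neighbour lay in the centre, so the gap condition removed more broad regions there than in either outer part (5 on the left, 4 on the right).

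On X, more of the domains than of the shorter regions were central. There 17 of 39 domains (43.6%, 95% exact interval 27.8 to 60.4%) were central, 7 lay in the left part and 15 in the right. Of its 60 shorter isolated regions, 14 (23.3%, 13.4 to 36.0%) were central and 28 lay in the left part. The intervals of these shares overlap, and the difference was not tested.

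**Figure D4:**
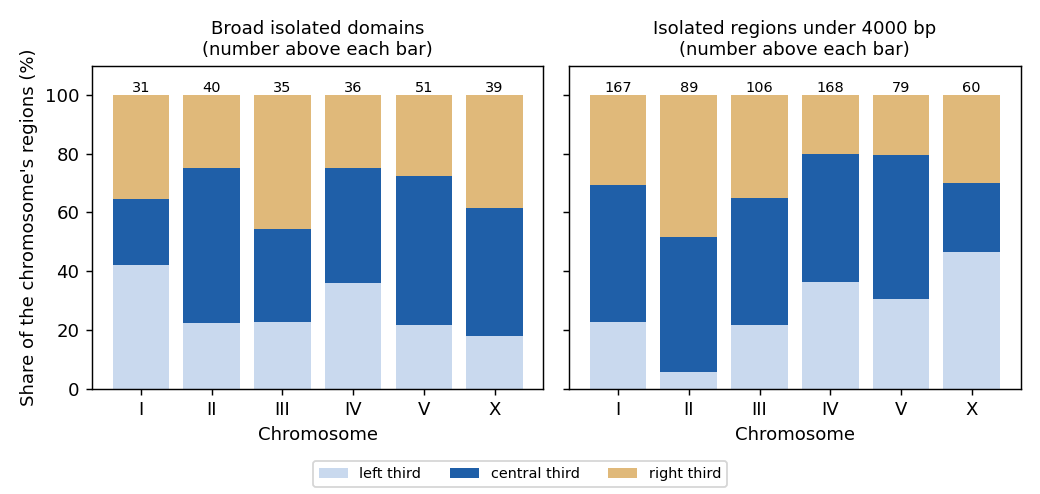
Share of isolated regions (y axes, %) with their midpoint in the left, central or right part of equal length of each chromosome (x axes), for broad isolated domains (left panel) and isolated regions under 4000 bp (right panel); numbers above the bars count the regions. The central share of domains is lowest on I, at 22.6%, and highest on II, at 52.5%, and on X it is 43.6% for domains against 23.3% for shorter regions.

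Isolation went well beyond the limit for most domains. The median gap to the nearest listed region was 24754 bp, with quartiles of 7222 and 52216 bp. It was 16934 bp for the shorter isolated regions, but chromosomes differed in this. Domains had the larger median gap on II (24588.5 against 13995 bp), V (50269 against 38388 bp) and X (33925 against 29989 bp). They had the smaller one on I (7310 against 7531 bp), III (19759 against 23644 bp) and IV (11216 against 16473.5 bp). Only 12 domains (5.17%) had a neighbour within 2000 bp and 73 (31.5%) within 10000 bp, while 27 (11.6%) had none within 100000 bp. The most remote pair sat in a sparse stretch of chromosome II. There the domain from 2231453 to 2235983 had no neighbour for 1382478 bp to its left, and its right neighbour, 684036 bp away, was the domain from 2920020 to 2924722, which in turn had none for 1026500 bp to its right. Both were weak, with ratios of 1.32 (95% exact interval 1.11 to 1.58) and 1.19 (1.05 to 1.35). The first had the fewest ChIP tags of the domains with recovered tags, 446. Next came the domain on X from 7230137 to 7235667, 421367 bp from its nearest neighbour, with a ratio of 1.59 (1.44 to 1.77). Over all domains the gap to the nearest region and the ratio were barely related (Spearman's rho -0.11 over 226 domains, a description), as were gap and length (rho 0.07 over 232).

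Few domains lay close to another domain. The median distance to the nearest other domain was 137888 bp, and 14 of 232 (6.03%) had one within 10000 bp. The closest pair stood 1204 bp apart on chromosome I, the domain from 3821800 to 3826949 (5150 bp, 2047 ChIP against 734 scaled control tags) and the one from 3828154 to 3834466 (6313 bp, 1630 against 806). Their ratios, 2.79 (95% exact interval 2.54 to 3.07) and 2.02 (1.84 to 2.23), differed by more than the counting error.

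**Figure D5:**
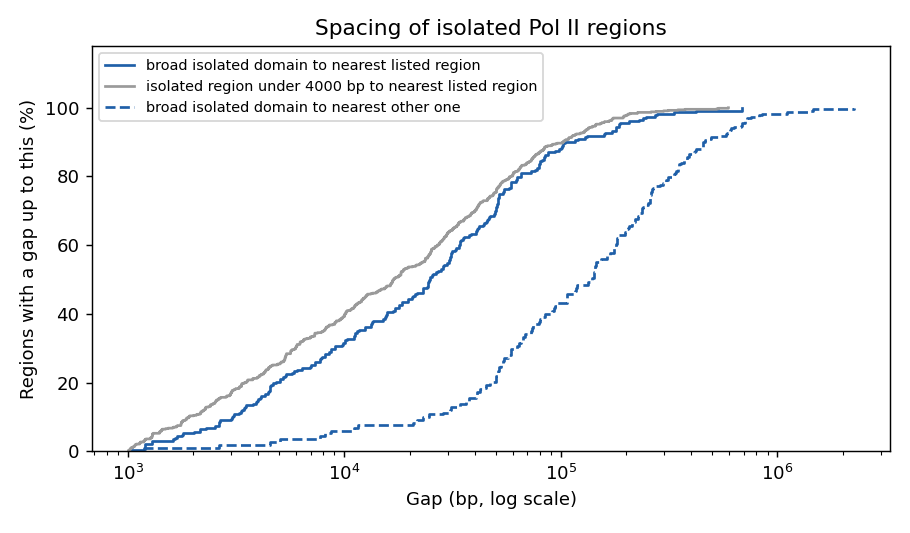
Cumulative share of regions (y axis, %) by gap in bp (x axis, log scale): from each broad isolated domain to the nearest listed region (solid blue), from each isolated region under 4000 bp to the nearest listed region (grey), and from each domain to the nearest other domain (dashed blue). The medians are 24754, 16934 and 137888 bp.

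With no other listed region between them, domains followed one another in 45 runs of 2 or more, which held 105 of the 232 domains (45.3%). Most of these, 35, were pairs. A run of 5 on chromosome I from 3292368 to 3834466 held 28.5 kb of domains in 542 kb, with ratios from 1.58 to 3.74, and it ended with the closest pair. Another run of 5 on chromosome V from 10201321 to 10725005 held 41.5 kb in 524 kb and included both of the long neighbours described above. On X, 4 domains from 7951103 to 8084754 lay within 134 kb, with ratios of 2.37, 1.52, 1.95 and 1.48 from left to right. Within a run, the highest ratio was up to 2.38 times the lowest.

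Broad regions with a close neighbour were the nearest match in length, with a median of 5624.5 bp. Their median ratio was 1.92 in 69 regions with tags, with 28 (40.6%) at 2 or more and 13 (18.8%, 95% exact interval 10.4 to 30.1%) under 1.5. The isolated domains thus had a larger share of weak ratios, 31.0% (25.0 to 37.4%), with intervals that overlap. Chromosomes I and IV, with the low control factors, held 36 of these 70 regions but 67 of the 232 isolated domains, and the part of that difference in the ratios was not tested. On chromosome II medians were 1.54 for isolated domains and 1.97 for the 8 with a neighbour, on III 1.74 and 1.95, and on X 1.69 and 1.84, the latter in 3 regions. On IV they were 1.95 and 1.96. On I and V the isolated domains had the higher median, 2.02 against 1.99 and 1.71 against 1.68.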

How the data were processed

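The starting point was the authors' deposited list, 1310 regions with their bounds and a q-value, made from both replicates together. PeakSeq and WormBase WS180 are named in the list itself, per the file headers and source column; the aligner, the filters and the way of combining are not stated in the material at hand. The labels' protocols also mention embryos and a GFP serum, unlike the sample labels. The gene table available is of assembly WBcel235 and was not used.

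Gaps were computed along each chromosome; its first and last region counted as having no neighbour on the outer side. Tags were recovered by reading each q-value as p × 14435 / rank, with ranks from 30 and p the lower binomial tail at a probability of 0.5. Under this reading, 29 regions ranked higher are absent from the list, and their lengths and positions are not known. The counts, gaps, densities and rankings given here were all computed without them. Exactly 1 pair of tags matched in 1301 of 1310 regions (relative tolerance 1e-10). That these are ChIP and scaled control tags is taken from PeakSeq's published procedure, the file being silent on it. Control tags were read per chromosome as a whole number times a factor, rounded up, which matched 96.0 to 98.3% of regions and 224 of 226 domains. Each factor was chosen for the largest matched share above that matched by chance, which is 1 divided by the factor. The matched share is thus a fit to these same tags and no separate check. Regions without a match took the nearest whole number. On simulated tags of 1248 regions the recovery returned the right pair in 100% of them. The simulated q-values were built by the same formula, so this checks the search and not the reading of the list. The simulated search covered fewer ranks and totals than the real one and left out the smallest p-values. Intervals are exact at 95% (Clopper-Pearson for shares and ratios, Poisson for densities).

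Domains, comparisons and lists were chosen with earlier results of these data known. Named regions are the 10 longest, the 10 highest and 10 lowest in ratio, the 10 most significant, the leaders of each chromosome, the 3 with the widest gap, the closest pair, and the 3 on each side of the length limit. The regions beside the gap limit, the densest domains, the runs, the ratio limits of 3 and 1.5 and the q-value limit of 1e-50 were added after values were seen. No significance test was run. Alternatives changed the length, gap and q-value limits, the control scaling, the chromosomes and the tag minimum. The work used Python (3.11.15) with SciPy (1.17.1), NumPy (2.4.6), matplotlib (3.10.9) and pandas (2.3.3).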

Additional observations from a re-analysis of the deposited data

How the results depend on the processing

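Across the alternatives, 57 of 66 recomputed values stayed close to the reported one. For counts and folds this means within 1.5 times, and for shares and medians within the 95% interval of the reported value. For differences the interval was that of the domains' median alone, with the median of the shorter regions held fixed. Some alternatives kept nearly the same domains, such as 230 of the 232 without the first and last region of each chromosome. For these, closeness was nearly fixed in advance. A length limit of 6000 bp left 80 domains. A gap limit of 5000 bp raised the fold between the fullest and emptiest chromosome to 2.03. Among regions with a q-value below 1e-05, domains were lower in median ratio than shorter isolated regions by a difference of -0.15. With the largest control factor for every chromosome the median ratio was 1.66, and 29.95% of domains reached 2. On II, III, V and X alone, X held 23.6% of domains, by construction of fewer chromosomes. With unscaled control, the median ratio was 2.97, 95.1% reached 2, and the difference from shorter isolated regions turned to 0.10; dropping factors of 1.36 to 1.83 raises every ratio by construction. The cause of the other shifts was not tested. The limit of 1000 tags and all alternatives for the fold between chromosomes were added after seeing the data. Lower bounds of the weakest domains reach down to 1.03. No paired analysis was possible because a single list was made from the replicates together, which also kept any replicate from being left out.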

Other observations

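The domains were also set side by side in classes of ratio. The 20 domains with a ratio of at least 3 had a median of 371 ChIP tags per kb and 70.7 unscaled control tags per kb. In the central part of their chromosome lay 4 of them (20.0%), a share from few domains with no interval computed. Over all domains the central share was 40.9% on the autosomes and 43.6% on X. The 70 domains with a ratio under 1.5 had medians of 201 and 89.6 tags per kb, and 28 of the 70 were central. The classes between had 89.0 and 87.5 unscaled control tags per kb, with 47.9% and 39.7% in the centre. The lower input of the strongest class is part of the ratio itself, and the classes were drawn from the ratio, so no test was run. The median gap to the nearest listed region was 11832.5 bp in the strongest class and 28364.5 bp in the weakest. Of the 20 strongest domains 10 lay on I or IV, and of the 70 weakest 12. Over all domains the median gap was 7310 bp on I and 11216 bp on IV, against 19759 to 50269 bp on the other chromosomes. The part of chromosome in the gaps and central shares of the classes was not tested. These classes were chosen after their values were seen.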
